A study of Homo sapiens with 12 samples.

Results

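Untreated cells of a pair of degron lines were compared before any auxin was added: PAF1-AID OsTIR1 cells against SPT6-AID OsTIR1 cells, both made in DLD-1, an established human colorectal adenocarcinoma line. The libraries were chosen by their labels, as those at 0 h of auxin, and there were 4 of them among the 12 of the series, 2 per line. In PAF1-AID cells the auxin-inducible degron is on PAF1, and in SPT6-AID cells it is on SPT6. Both lines constitutively express OsTIR1, the plant receptor that marks a tagged protein for destruction once auxin is present. DLD-1 cells without a tag are not among the samples, so a difference cannot be assigned to one line rather than the other. The other 8 libraries, 2 per line and time, had 500 µM auxin for 2 h or 6 h. The PAF1-AID libraries are numbered 3 and 4 and the SPT6-AID libraries 1 and 2. The labels do not say whether a number stands for a culture or a clone, so the spread behind each p-value is that between libraries. Differences between the numbers of a line recurred at later times, as given below.

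SPT6 is a chaperone of histones. It moves along genes together with RNA polymerase II and restores nucleosomes in its wake. PAF1 is a subunit of the PAF1 complex, which binds the same elongating polymerase and helps it through chromatin. A degron removes the protein and leaves the mRNA in place, so the untreated lines serve as the baseline from which each depletion is measured. DLD-1 is widely used as a model of colon epithelium with an overactive WNT pathway, and it is known for defective mismatch repair through MSH6.

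Total counts of the untreated libraries were 42224100 and 45200038 in PAF1-AID numbers 3 and 4, and 57442158 and 57448020 in SPT6-AID numbers 1 and 2. Fly genes, counted in the same table, held 3.94% to 4.39% of them. Libraries of a line were not copies of each other, since their counts differed by a chi-square of 58.0 per degree of freedom in PAF1-AID cells and 64.4 in SPT6-AID cells. Mitochondrial genes held 1.63% and 2.16% of human counts in PAF1-AID numbers 3 and 4, and 2.39% and 2.45% in SPT6-AID numbers 1 and 2.

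Epithelial and intestinal genes were prominent in the profile that both lines shared. Levels are given in TPM (transcripts per 1000000), computed from the counts and the deposited transcript lengths. Of 19897 protein-coding genes, 11076 reached 1 TPM in all 4 untreated libraries. Of 20 markers of intestinal epithelium, 14 did so. EPCAM, an epithelial adhesion molecule, was at 1177 and 1241 TPM in PAF1-AID numbers 3 and 4 and at 1121 and 1103 TPM in SPT6-AID numbers 1 and 2. KRT18, a keratin of simple epithelia, was at 1012 and 1219 TPM in PAF1-AID cells and at 1622 and 1500 TPM in SPT6-AID cells. CDX2, the transcription factor that specifies intestine, was at 175 and 191 TPM in PAF1-AID cells and at 205 and 151 TPM in SPT6-AID cells. The lines overlapped for CDX2, and PAF1-AID was lower in both libraries for KRT18. That KRT18 difference did not pass the threshold (log2 fold change -0.53, Benjamini-Hochberg adjusted p of edgeR's quasi-likelihood test = 0.537).

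Markers of mature colon cells were largely missing. CDX1 and PHGR1 had no count in any untreated library, and VIL1, which encodes villin of the microvilli, stayed at or below 0.012 TPM. Of 8 genes of absorptive colonocytes, none reached 1 TPM in all 4 libraries, and CA1, CA4, SLC26A3 and GUCA2B had no count. CA2, a carbonic anhydrase, was at 7.06 and 0.775 TPM in PAF1-AID numbers 3 and 4, and at 10.8 and 13.8 TPM in SPT6-AID numbers 1 and 2. Of 7 goblet cell markers, AGR2 and TFF3 passed 1 TPM everywhere, while ATOH1, the factor that starts the secretory fate, had no count.

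**Figure D1:**
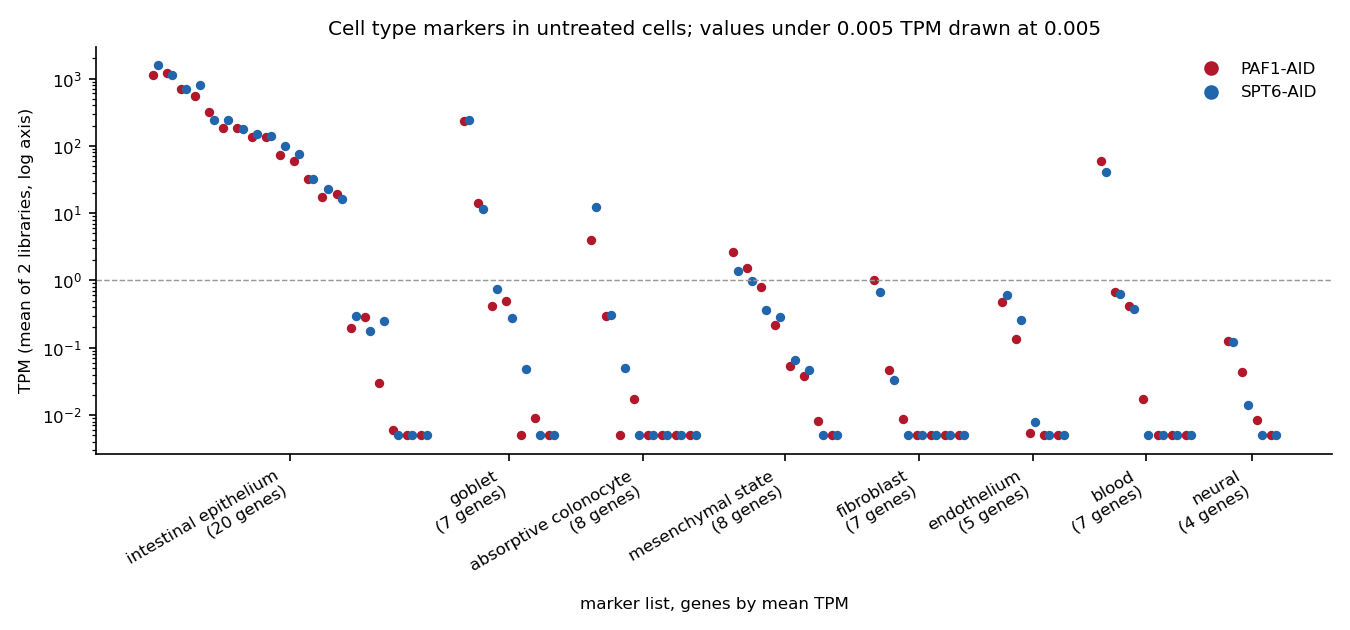
Marker genes of 8 cell types in untreated cells, each point the mean TPM of the 2 libraries of a line on a log axis (PAF1-AID red, left; SPT6-AID blue, right), with genes of a list sorted by their mean and a dashed line at 1 TPM. Most of the 20 intestinal epithelium genes lie above the line, and most markers of other cell types lie at or near the bottom.

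Other cell types left few traces. None of 7 fibroblast markers, 5 endothelial markers, 4 neural markers or 8 genes of the mesenchymal state reached 1 TPM in all 4 libraries. Among the defining markers, COL1A2, COL3A1, DCN and LUM of fibroblasts, KDR of endothelium, and CD3E and HBA1 of blood had no count, and PTPRC, the pan-leukocyte gene, stayed at or below 0.018 TPM. The summed level of the fibroblast list was 1.47 and 0.67 TPM in PAF1-AID numbers 3 and 4, and 0.88 and 0.54 TPM in SPT6-AID numbers 1 and 2. HBB, a globin gene, was the exception in the blood list, at 59.8 and 60.3 TPM in PAF1-AID numbers 3 and 4 and at 21.0 and 59.6 TPM in SPT6-AID numbers 1 and 2. In bulk RNA, fewer cells of a type and less RNA per cell cannot be told apart.

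Genes of the WNT pathway and the known drivers of colorectal cancer were expressed in both lines, and none was called between them. Since 0.0337% of all genes tested were called, a list of this size is likely to hold no call. The lack of calls therefore does not show that the lines are alike in these genes. AXIN2, a feedback inhibitor and standard readout of WNT signalling, was at 257 and 226 TPM in PAF1-AID numbers 3 and 4, and at 256 and 189 TPM in SPT6-AID numbers 1 and 2. BMP4, a secreted growth factor, was at 942 and 886 TPM in PAF1-AID cells and at 837 and 642 TPM in SPT6-AID cells. CCND1, which encodes cyclin D1, was at 624 and 614 TPM in PAF1-AID cells and at 595 and 505 TPM in SPT6-AID cells. All 3 were slightly higher in the PAF1-AID means, and none passed the threshold. Of 24 genes in the list of intestinal stem cell genes and WNT targets, 19 reached 1 TPM in all 4 libraries, 19 were tested and 0 were called, with a median log2 fold change of 0.09. OLFM4 and PROM1, stem cell genes of the colon, stayed at or below 0.022 TPM.

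All 17 driver genes were tested and 0 were called, where 0.0337% of all genes were called. Their median log2 fold change was 0.01, and all 17 reached 1 TPM in all 4 libraries. In the list of 8 mismatch repair genes, 0 were called and the median log2 fold change was 0.02. MSH6, a subunit of the enzyme that recognises mispaired bases, had the lowest level of the 8, at 8.10 and 6.70 TPM in PAF1-AID cells and at 6.09 and 6.00 TPM in SPT6-AID cells.

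Testing PAF1-AID 0h against SPT6-AID 0h called 7 of 20791 human genes (0.0337%), of which 1 was higher and 6 were lower in PAF1-AID cells. The test was edgeR's quasi-likelihood test over all 12 libraries with Benjamini-Hochberg adjustment and a threshold of 0.05, and 1372 genes had an unadjusted p under 0.05. Its fit had no term for the library number, although differences between numbers recurred across times. The p-values therefore treat libraries of the same number as independent, which they are not. The median log2 fold change of all genes tested was 0.00. With fly totals as library sizes, the corresponding median of untreated log2 differences was 0.10, and between numbers 3 and 4 it was 0.21. The number of calls depended on every library, while the fold changes kept their direction in all 22 alternatives. The log2 fold change of SUPT6H stayed between -0.95 and -0.75, that of ITGA2 between -1.53 and -1.24 and that of CLIC5 between -1.11 and -0.94, and that of PLXNA2 moved more, between -4.02 and -2.68. The count was 0 without any 1 of the 4 untreated libraries, 0 without any 1 of the 4 libraries at 6 h, 1 without either PAF1-AID library at 2 h, and 3 without either SPT6-AID library at 2 h. Without number 3 at every time, without TMM (total counts) or with fly totals it was 0. It was also 0 in a fit of the 4 untreated libraries alone (864 genes at an unadjusted p under 0.05), while DESeq2's Wald test called 87.

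Each tagged gene had a higher mRNA level in both libraries of the line where it carries the tag. In the main fit SUPT6H passed and PAF1 did not, and both calls depended on the fit. SUPT6H stayed called in 6 of 22 alternatives and lost its call in 16, while PAF1 passed in 4. SUPT6H is the gene of SPT6 (GRCh38 chromosome 17, 28662091 to 28702684; ENSG00000109111). It was at 261 and 287 CPM (counts per 1000000 mapped to human genes, scaled by TMM) in PAF1-AID numbers 3 and 4, against 496 and 501 CPM in SPT6-AID numbers 1 and 2. The groups did not overlap, and the log2 fold change was -0.86 ± 0.11 (SE, n = 2 each; Benjamini-Hochberg adjusted p of edgeR's quasi-likelihood test = 0.0333). PAF1 (ENSG00000006712, chromosome 19, 39385852 to 39391195) was at 126 and 131 CPM in PAF1-AID numbers 3 and 4, against 69.6 and 75.8 CPM in SPT6-AID numbers 1 and 2. Its libraries did not overlap either, which at 0 h was also so for 32.7% of all genes tested. Its log2 fold change of 0.82 ± 0.12 (SE, n = 2 each) did not pass at 0 h (Benjamini-Hochberg adjusted p of edgeR's quasi-likelihood test = 0.0869). It passed with a mean of at least 1 CPM (adjusted p = 0.0421), with no filter (0.000783), with DESeq2's Wald test (1.06e-05) and with the replicate block as a random effect in limma-voom (0.0270). Its log2 fold change was 0.75 to 0.94 over 22 alternatives, with adjusted p-values of 1.06e-05 to 0.715. With 1 line per tag, the tag and the line cannot be told apart.

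No other gene of their complexes was called. Of the 6 genes of the PAF1 complex, 0 were called, where 0.0337% of all genes were called, with a median log2 fold change of -0.07. CTR9, the scaffold of that complex, was at 47.6 and 44.1 TPM in PAF1-AID cells and at 51.5 and 51.0 TPM in SPT6-AID cells. Of 29 pausing and elongation factors tested, SUPT6H was the 1 called. SUPT5H, which encodes the elongation factor SPT5, was at 115 and 126 TPM in PAF1-AID cells and at 132 and 123 TPM in SPT6-AID cells. IWS1, a binding partner of SPT6, was at 71.8 and 67.4 TPM in PAF1-AID cells and at 66.1 and 74.2 TPM in SPT6-AID cells.

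S100A4, a calcium-binding protein associated with cell motility, was the 1 gene called higher in PAF1-AID cells. S100A4 (ENSG00000196154, chromosome 1, 153543613 to 153550136) was at 107 and 102 CPM in PAF1-AID numbers 3 and 4, against 35.4 and 24.4 CPM in SPT6-AID numbers 1 and 2. Its log2 fold change was 1.81 ± 0.22 (SE, n = 2 each; Benjamini-Hochberg adjusted p of edgeR's quasi-likelihood test = 0.0333). Of 13 S100 and annexin genes tested, S100A4 was the 1 called, and the list's median was 0.07.

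The 6 genes called lower included a pair of cell surface receptors. ITGA2, the collagen-binding integrin subunit α2 (ENSG00000164171, chromosome 5, 52989326 to 53094779), was at 54.5 and 44.8 CPM in PAF1-AID numbers 3 and 4, against 128 and 131 CPM in SPT6-AID numbers 1 and 2. The log2 fold change was -1.38 ± 0.14 (SE, n = 2 each; Benjamini-Hochberg adjusted p of edgeR's quasi-likelihood test = 0.0324). PLXNA2, a plexin that serves as a receptor for semaphorins (ENSG00000076356, chromosome 1, 208022242 to 208244320), was at 1.12 and 0.436 CPM in PAF1-AID cells, against 6.96 and 7.25 CPM in SPT6-AID cells. Its log2 fold change was the largest of the 7, at -3.19 ± 0.41 (SE, n = 2 each; Benjamini-Hochberg adjusted p of edgeR's quasi-likelihood test = 0.0346).

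CLIC5, a chloride intracellular channel protein found at the base of microvilli and linked to the cytoskeleton (ENSG00000112782, chromosome 6, 45880827 to 46080348), was at 38.6 and 40.9 CPM in PAF1-AID cells, against 85.5 and 80.4 CPM in SPT6-AID cells. ARSD, a member of the arylsulfatase family (ENSG00000006756, chromosome X, 2903970 to 2929351), was at 11.3 and 11.5 CPM in PAF1-AID cells, against 24.6 and 23.3 CPM in SPT6-AID cells. KIAA1549L (ENSG00000110427, chromosome 11, 33376466 to 33674102) was at 0.571 and 0.551 CPM in PAF1-AID cells, against 2.50 and 2.56 CPM in SPT6-AID cells. All 3 were lower in both PAF1-AID libraries, with log2 fold changes of -1.06 ± 0.12, -1.08 ± 0.13 and -2.17 ± 0.26 (SE, n = 2 each; Benjamini-Hochberg adjusted p of edgeR's quasi-likelihood test = 0.0333 for each). Of 22 adhesion and matrix genes tested, ITGA2 was the 1 called, with a list median of -0.15.

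**Figure D2:**
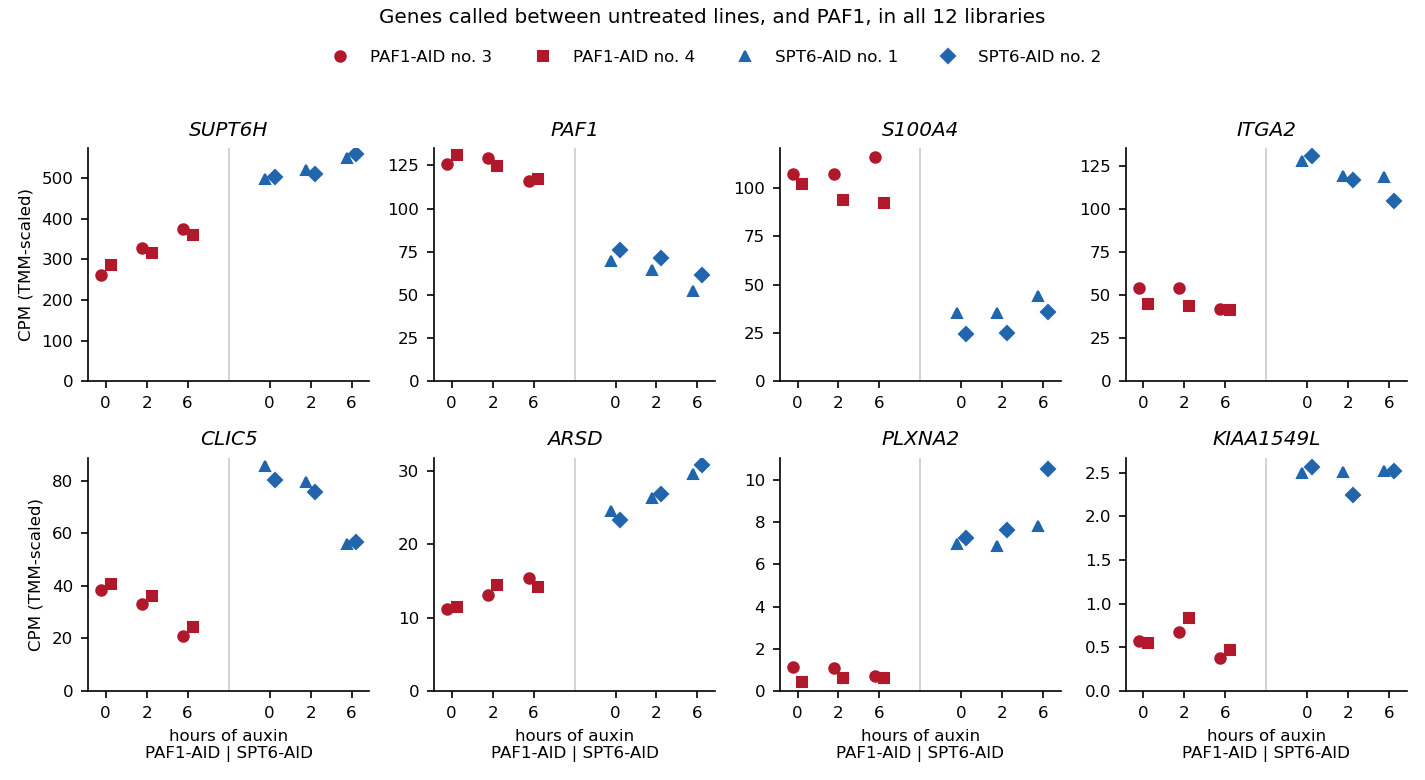
CPM of SUPT6H, PAF1 and the other 6 genes called between untreated lines, in all 12 libraries, with PAF1-AID (red) left of SPT6-AID (blue) and hours of auxin along each axis. Every panel shows the 6 libraries of each line on separate levels, for example 92.3 to 116 CPM in PAF1-AID against 24.4 to 44.1 CPM in SPT6-AID for S100A4.

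The lines kept a distance in these genes at later times. All 7 had the same direction and were called at 2 h and at 6 h, in libraries that the 0 h groups do not contain, although all times share 1 estimate of the spread. At 2 h, 96 genes were called between the lines (0.462%) and at 6 h 2851 (13.7%), when both lines also carry their depletion responses. At 2 h 75 of them were higher and 21 lower, at 6 h 2052 were higher and 799 lower, and with fly totals as library sizes those numbers were 7 higher against 6 lower at 2 h, and 1773 higher against 335 lower at 6 h. PAF1 passed at both, with a log2 fold change of 0.90 at 2 h and 1.03 at 6 h (Benjamini-Hochberg adjusted p of edgeR's quasi-likelihood test = 0.0103 and 0.000750). Over the 12 libraries SUPT6H had a range of 261 to 374 CPM in PAF1-AID cells, against 496 to 557 CPM in SPT6-AID cells. PAF1 had a range of 116 to 131 CPM in PAF1-AID cells, against 52.3 to 75.8 CPM in SPT6-AID cells. Libraries of the same number resemble each other across times, as described below for the differences within a line, so the 6 libraries of a line are not 6 independent samples.

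Across all 12 libraries, 681 genes (3.28%) did not overlap between the lines, 327 of them higher and 354 lower in PAF1-AID cells. In the 4 untreated libraries alone, 6796 genes (32.7%) did not overlap. That is about the share that a random order of these 4 libraries would give, so it does not show that the lines differ. The genes of the 12-library group named here were picked from the 12 largest mean differences in each direction among expressed coding genes, after their values were seen. They do not follow that order. KLHL4 had a larger mean difference than LCN2, and SEMA5A, STEAP4 and ERN2 had larger ones than CFTR. Those other than S100A4 and PLXNA2 did not pass at 0 h, so they are given as values.

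The lower ones included CFTR and AQP3, a pair of epithelial channels. IQGAP2, a scaffold protein of the cytoskeleton, was at 10.0 and 3.14 CPM in PAF1-AID numbers 3 and 4, against 35.9 and 110 CPM in SPT6-AID numbers 1 and 2. CFTR, the chloride channel of epithelial secretion, was at 44.3 and 27.6 CPM in PAF1-AID cells, against 135 and 80.7 CPM in SPT6-AID cells. AQP3, a water and glycerol channel, was at 1.12 and 1.51 CPM in PAF1-AID cells, against 9.02 and 6.43 CPM in SPT6-AID cells. AQP3 came close to the threshold at 0 h (log2 fold change -2.55 ± 0.35, SE, n = 2 each; Benjamini-Hochberg adjusted p of edgeR's quasi-likelihood test = 0.0536). IL33, an alarmin cytokine, was at 5.66 and 3.12 CPM in PAF1-AID cells, against 11.5 and 31.1 CPM in SPT6-AID cells. Of the higher ones, LCN2, an iron-scavenging protein of mucosal defence, was at 15.2 and 4.84 CPM in PAF1-AID cells, against 1.09 and 1.05 CPM in SPT6-AID cells. In IQGAP2 and IL33 the libraries of each line stood apart from each other, and in LCN2 those of PAF1-AID cells did. The lack of overlap between lines was the rule by which these genes were chosen, so it is not a result.

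Among 37 lists of genes covering tissue identity, signalling, stress, metabolism and growth, 531 members were tested and 3 were called (0.565% of members, where 0.0337% of all genes were called): SUPT6H, S100A4 and ITGA2. Since SUPT6H is a tagged gene and the lists were written with earlier results known, nothing is read from that share. The median log2 fold change of these members was -0.05. For the 29 lists with at least 5 tested members, the list medians lay between -0.52 and 0.57, the lowest being the mitochondrially encoded genes and the highest the mesenchymal state. Of 13 mitochondrially encoded genes 0 were called, and their summed level was 52665 and 68524 TPM in PAF1-AID numbers 3 and 4, against 79304 and 79686 TPM in SPT6-AID numbers 1 and 2. Their median between lines was -0.02 at 2 h and -0.52 at 6 h. The 19 genes of cholesterol synthesis had a median of -0.40 and 0 calls.

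Libraries of different lines were about as close to each other as libraries of the same line. Over 13294 genes with a mean of at least 1 on the log2 CPM scale, Pearson's r across genes was 0.979 between PAF1-AID numbers 3 and 4 and 0.980 between SPT6-AID numbers 1 and 2, and 0.973 to 0.984 between libraries of different lines. The genes are not independent replicates, and these values are a description. The closest pair of all was PAF1-AID number 4 and SPT6-AID number 1, with a median absolute log2 difference of 0.183 and 194 genes at least 2-fold apart. PAF1-AID numbers 3 and 4 had 234 such genes, and SPT6-AID numbers 1 and 2 had 296. In 20.3% of the genes the mean difference between lines was larger than the difference within each line. The former is taken between means of 2 libraries and the latter between single libraries, which vary more. The share expected without a line difference was not computed, so 20.3% does not show that the lines differ.

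Most differences within a line recurred in the auxin libraries. In a comparison added after the data were seen, number 3 was tested against number 4 in the PAF1-AID libraries, and number 1 against number 2 in the SPT6-AID libraries, in the 8 auxin libraries alone, and the untreated libraries were then read beside the result. That fit had 2 residual degrees of freedom, since each number had 1 library at 2 h and 1 at 6 h. Its p-values measure how well a difference between numbers repeated across these times. They do not measure a spread between independent cultures or clones. Number 3 over 4 called 2660 genes (12.8%), 1672 higher (8.04%) and 988 lower (4.75%), by edgeR's quasi-likelihood test with Benjamini-Hochberg adjustment. Of the 2660, 95.5% had the same direction in the untreated libraries. Number 1 over 2 called 6069 genes (29.2%), 3154 higher (15.2%) and 2915 lower (14%), of which 98.0% had the same direction in the untreated libraries. With total counts in place of TMM the second split was 4407 higher and 1942 lower. The number 3 over 4 count was 754 to 986 without any 1 of the PAF1-AID auxin libraries, and 5323 to 5332 without any 1 of the SPT6-AID auxin libraries.

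**Figure D3:**
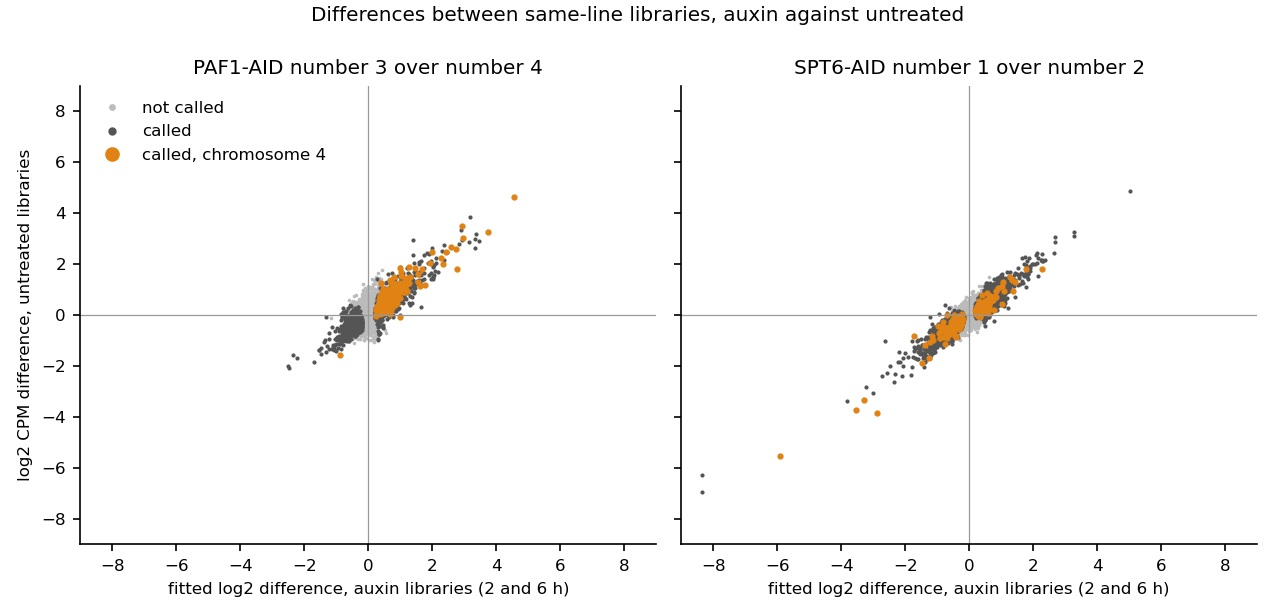
Each of 13259 genes by its fitted log2 difference between same-line libraries in auxin (horizontal, 2 and 6 h) and its log2 CPM difference in the untreated libraries (vertical), for PAF1-AID number 3 over 4 and SPT6-AID number 1 over 2. Most genes called in auxin lie at lower left and upper right, and called genes of chromosome 4 gather at upper right in the PAF1-AID panel; 1 gene lies outside the SPT6-AID panel.

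Chromosome 4 stood apart in PAF1-AID number 3. The median log2 difference of its 772 genes tested was 0.50 between numbers 3 and 4 at 0 h, 0.45 at 2 h and 0.45 at 6 h, while the medians of the other chromosomes at 0 h lay between -0.06 and 0.00. Chromosome 4 held 5.13% of human counts in PAF1-AID number 3 and 3.27% in number 4, against 3.24% and 3.46% in SPT6-AID numbers 1 and 2. Without CXCL5, the gene of chromosome 4 with the highest count in number 3, the shares were 4.79% in PAF1-AID number 3 and 3.22% in number 4, against 3.23% and 3.37% in SPT6-AID numbers 1 and 2. Of 407 expressed coding genes of the chromosome, 363 (89.2%) were highest in number 3 of the 4 untreated libraries, against 21.3% of 10661 coding genes elsewhere. The median difference of these 407 genes, 0.54, is a ratio of 1.45 on a linear scale.

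The higher level was found along the chromosome. All 17 of its windows of 10 Mb with at least 20 genes tested had a positive median between numbers 3 and 4, from 0.19 to 0.60. The other 270 windows lay between -0.52 and 0.40, so the ranges overlapped. The lowest of these, the first 10 Mb of X, was at -0.52 at 0 h, -0.38 at 2 h and -0.47 at 6 h. On chromosome 4, the windows from 60 to 70 Mb and from 130 to 140 Mb held fewer genes and gave no value. In the auxin libraries 369 of its genes were called higher and 2 lower in number 3 than in number 4, which is 47.8% higher where 8.04% of all genes were. Abundant examples were EREG, a ligand of the EGF receptor, at 1506 and 820 CPM in PAF1-AID numbers 3 and 4 and at 904 and 1365 CPM in SPT6-AID numbers 1 and 2, and SMARCA5, a chromatin remodeller. SMARCA5 was at 480 and 335 CPM in PAF1-AID numbers 3 and 4 and at 408 and 340 CPM in SPT6-AID numbers 1 and 2. H2AZ1, a histone variant gene, was at 986 and 784 CPM in PAF1-AID numbers 3 and 4 and at 569 and 650 CPM in SPT6-AID numbers 1 and 2. HNRNPDL, also among the most abundant genes of the chromosome, was not higher in number 3, at 472 CPM against 488 CPM in number 4. DNA copy number was not measured. The 3 genes of the chromosome with the smallest p between lines were PSAPL1, OCIAD2 and MRPS18C, and none passed. PSAPL1 went against the chromosome, at 0.274 and 0.573 CPM in PAF1-AID numbers 3 and 4, against 1.70 and 1.68 CPM in SPT6-AID numbers 1 and 2. OCIAD2 was at 63.5 and 52.9 CPM in PAF1-AID numbers 3 and 4, against 37.3 and 33.7 CPM in SPT6-AID numbers 1 and 2. MRPS18C, a mitochondrial ribosomal protein gene, was at 60.9 and 53.9 CPM in PAF1-AID numbers 3 and 4, against 39.0 and 35.0 CPM in SPT6-AID numbers 1 and 2.

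The difference between lines on that chromosome rested on PAF1-AID number 3. At 0 h the median of PAF1-AID over SPT6-AID was 0.23 for chromosome 4 and between -0.05 and 0.02 for the other chromosomes. Without PAF1-AID number 3 it was -0.04, and without PAF1-AID number 4 it was 0.44. Between SPT6-AID numbers 1 and 2 its median was -0.02. None of the 7 genes called between untreated lines lies on chromosome 4. The window with the lowest median between lines at 0 h was the first 10 Mb of X, at -0.34. Its 3 genes with the smallest p were ARSD, GPR143 and DHRSX-IT1, and of these ARSD alone passed.

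**Figure D4:**
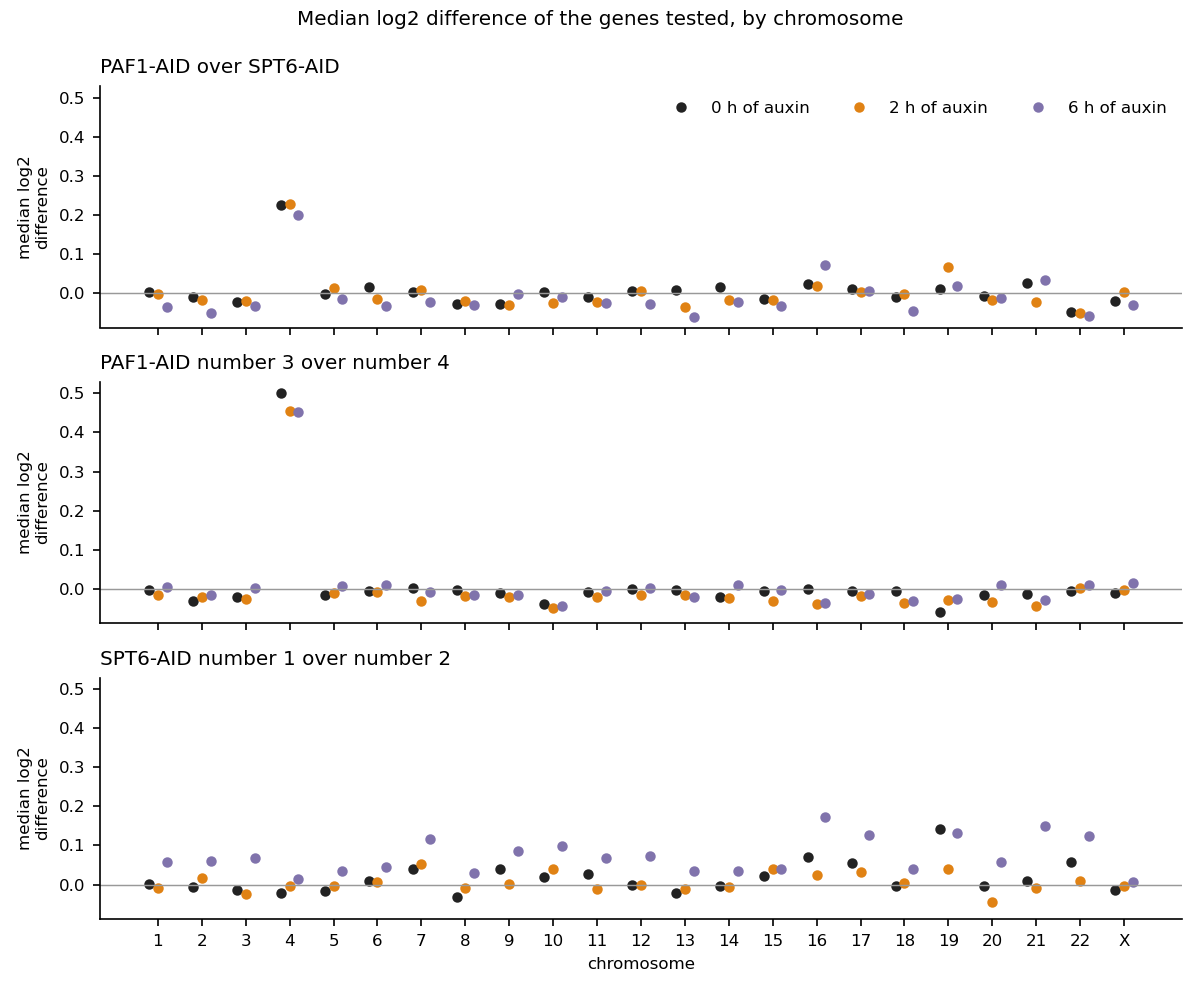
Median log2 difference of the genes tested on each chromosome at 0, 2 and 6 h of auxin, for PAF1-AID over SPT6-AID (top), PAF1-AID number 3 over 4 (middle) and SPT6-AID number 1 over 2 (bottom). Chromosome 4 lies at 0.23 at 0 h in the top panel and at 0.50 in the middle panel, and near 0 in the bottom panel.

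Chemokines and other targets of NF-kB, the transcription factor of inflammatory signalling, stood far apart between libraries of the same line. NF-kB dimers wait in the cytoplasm, held by inhibitors such as IκBα, and enter the nucleus after signals such as TNF, where they bind κB sites in promoters. The upstream sequences of 6 chemokine genes with large differences are shown because they carry matches to such sites in like places. They are the 120 bases before the annotated start in RefSeq (GRCh38.p14), read 5′ to 3′ on the gene's strand, and capitals mark a match to the κB consensus on either strand, or in CXCL8 to GGAATTTCC.
CXCL1: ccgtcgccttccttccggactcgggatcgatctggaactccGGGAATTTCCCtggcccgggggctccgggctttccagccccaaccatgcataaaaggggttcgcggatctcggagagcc
CXCL2: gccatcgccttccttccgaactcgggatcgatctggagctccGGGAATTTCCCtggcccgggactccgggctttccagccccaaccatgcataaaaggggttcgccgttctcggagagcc
CXCL3: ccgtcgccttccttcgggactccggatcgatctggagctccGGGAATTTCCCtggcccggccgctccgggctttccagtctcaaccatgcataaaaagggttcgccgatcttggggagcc
CXCL5: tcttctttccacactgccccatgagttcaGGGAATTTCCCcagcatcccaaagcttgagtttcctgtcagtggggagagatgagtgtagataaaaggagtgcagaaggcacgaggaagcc
CXCL8: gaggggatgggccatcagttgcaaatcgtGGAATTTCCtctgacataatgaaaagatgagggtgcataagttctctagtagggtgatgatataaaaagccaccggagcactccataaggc
CCL20: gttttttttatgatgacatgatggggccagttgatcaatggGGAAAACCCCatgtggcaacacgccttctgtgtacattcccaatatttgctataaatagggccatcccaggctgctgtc
CXCL1 lies at chr4:73869273-73869392 (plus strand), CXCL2 at chr4:74099196-74099315 (minus), CXCL3 at chr4:74038690-74038809 (minus), CXCL5 at chr4:73998678-73998797 (minus), CXCL8 at chr4:73740449-73740568 (plus) and CCL20 at chr2:227813722-227813841 (plus).

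The marked matches begin 78 to 91 bases before the start, and since the 6 genes are shown for this, it is not a result. CXCL8 has 0 matches to the consensus, and CXCL1, CXCL2 and CXCL3 are near-identical copies. Over the 250 bases before the start, the κB consensus was found on either strand in 9.96% of 35116 promoters, and GGAATTTCC, which overlaps the consensus where 1 more G stands before it, in 0.413%. Of the 28 genes in the list of NF-kB factors and targets, 23 had a promoter in the RefSeq table. These genes had 32 promoters, of which 20 held the consensus. Counted by gene, 17 of the 23 held it in at least 1 promoter, which is not the unit of the 9.96%. Since the list was made of NF-kB factors and targets, nothing is read from these shares. A match describes letters, not a bound site.

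SPT6-AID number 1 was low in these genes and PAF1-AID number 3 high. CXCL5, a neutrophil chemokine, was at 3157 and 516 CPM in PAF1-AID numbers 3 and 4, and at 68.8 and 926 CPM in SPT6-AID numbers 1 and 2. CXCL8, the chemokine interleukin 8, was at 28.8 and 6.01 CPM in PAF1-AID cells, and at 0.214 and 11.6 CPM in SPT6-AID cells. CCL20, which draws CCR6-bearing immune cells, was at 14.7 and 5.44 CPM in PAF1-AID cells, and at 0.0179 and 6.93 CPM in SPT6-AID cells. In all 3 genes number 3 was the highest and number 1 the lowest of the 4 libraries, so the lines overlapped and the difference between them did not pass. The 0.0179 CPM of CCL20 is 1 count.

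Number 1 was the lowest beyond the chemokines too. SAA1, an acute-phase protein, was at 17.4 and 11.1 CPM in PAF1-AID numbers 3 and 4, and at 0.196 and 18.2 CPM in SPT6-AID numbers 1 and 2. TNFAIP3, the inhibitor A20 that NF-kB induces, was at 16.7 and 9.04 TPM in PAF1-AID numbers 3 and 4, and at 2.61 and 12.6 TPM in SPT6-AID numbers 1 and 2. NFKBIA, which encodes IκBα, was at 94.5 and 84.5 TPM in PAF1-AID cells, and at 41.5 and 77.6 TPM in SPT6-AID cells. RELA, which encodes the p65 subunit, was at 86.6 and 97.0 CPM in PAF1-AID cells and at 106 and 92.1 CPM in SPT6-AID cells. The targets and the inhibitors were thus low in number 1 and RELA was not.

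Of 26 list members tested, 20 were called lower and 2 higher in number 1 than in number 2 in the auxin libraries, where 14% of all genes were called lower. In number 3 over 4, 15 were called higher and 0 lower, where 8.04% of all genes were called higher. The list was written after these values were seen and is given as a description. Its median untreated log2 difference was -1.28 for number 1 over 2 and 0.68 for number 3 over 4, beside 0.02 and 0.00 for all genes tested, and kept its sign with total counts and with fly totals. CXCL1, CXCL2 and CXCL3 are near-identical copies, as are SAA1 and SAA2, so the split of reads among them is uncertain. CXCL1, CXCL2, CXCL3, CXCL5 and CXCL8 lie on chromosome 4, where number 3 was 1.45 times number 4 in the median coding gene; CXCL5 differed more, with a log2 difference of 2.61 in untreated cells.

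**Figure D5:**
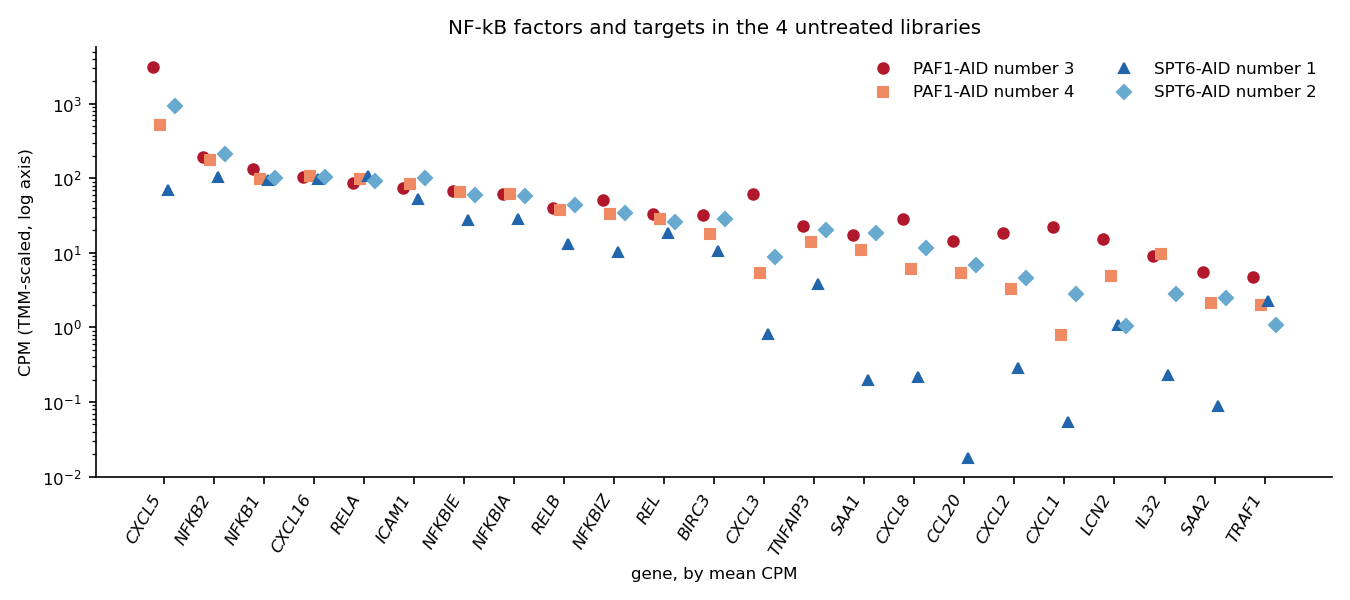
CPM on a log axis of the 23 NF-kB factors and targets that reach 1 CPM in a library, in the 4 untreated libraries, PAF1-AID (reds) left of SPT6-AID (blues) for each gene. SPT6-AID number 1 (triangles) is the lowest of the 4 in 20 of the 23 genes and PAF1-AID number 3 (circles) the highest in 15.

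Other genes separated the numbers outright. These are from the 12 largest fitted differences in each direction among expressed coding genes, a choice made after the data were seen. KLHL4, a kelch-family protein, was at 38.4 and 35.8 CPM in PAF1-AID numbers 3 and 4, and at 22.2 and 0.0187 CPM in SPT6-AID numbers 1 and 2, the last being 1 count. MBNL3, a splicing regulator, was at 17.7 and 18.3 CPM in PAF1-AID cells, and at 24.6 and 0.804 CPM in SPT6-AID cells. Both were low in number 2 alone of the 4 libraries. STING1, the adaptor of cytosolic DNA sensing, was at 14.7 and 7.94 CPM in PAF1-AID cells, and at 28.8 and 3.29 CPM in SPT6-AID cells.

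In PAF1-AID cells, TDO2, which starts tryptophan breakdown, was at 134 CPM in number 3 and 5.39 CPM in number 4, and at 4.66 and 17.5 CPM in SPT6-AID numbers 1 and 2. HOXD13, a homeobox gene active in the hindgut, was at 5.87 CPM in number 3 and 0.917 CPM in number 4, and at 3.30 and 3.53 CPM in SPT6-AID numbers 1 and 2. TDO2 set number 3 apart on the high side, and HOXD13 set number 4 apart on the low side. TDO2 lies on chromosome 4, where number 3 was higher along the chromosome. The untreated log2 difference of TDO2 was 4.63, beside a median of 0.50 for that chromosome. SESN3, a stress-induced sestrin, was at 10.7 CPM in number 3 and 1.01 CPM in number 4, and at 17.3 and 4.24 CPM in SPT6-AID numbers 1 and 2.

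A pair of transcription genes was low in PAF1-AID number 3. XRN2, the nuclear exonuclease that helps end transcription, was at 102 CPM in number 3 and 253 CPM in number 4, and at 231 and 259 CPM in SPT6-AID numbers 1 and 2. SUPT16H, which encodes a subunit of the histone chaperone FACT, was at 214.5 CPM in number 3 and 484 CPM in number 4, and at 443 and 579 CPM in SPT6-AID numbers 1 and 2. Both stayed low in the auxin libraries, with log2 differences of number 3 over 4 of -1.23 and -1.11. They were chosen after their values were seen, and SUPT16H may share reads with its pseudogene SUPT16HP1, which was at 17.9 and 43.1 CPM in PAF1-AID numbers 3 and 4 and at 39.3 and 51.3 CPM in SPT6-AID numbers 1 and 2.

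Gene groups tied to growth differed between the SPT6-AID libraries. Of 34 cytosolic ribosomal protein genes tested, 32 were called lower and 0 higher in number 1 than in number 2, with a median untreated log2 difference of -0.46. Of 24 G2/M genes, which act in mitosis, 17 were lower and 0 higher, with a median of -0.36. Of 18 genes of the ATF4 and unfolded protein stress response, 13 were lower and 1 higher, with a median of -0.45. Of 35 HOX genes tested, 16 were higher and 1 lower, with a median of 0.27. The background was 14% of genes called lower and 15.2% called higher, and the signs of these 4 medians were the same with total counts and with fly totals. The same lists gave 0 calls between the untreated lines, where 0.0337% of all genes were called. Between the PAF1-AID libraries, 10 of the 18 stress genes were called higher and 0 lower in number 3 than in number 4, with a median of 0.30, and 7 of the 35 HOX genes were called higher and 0 lower, with a median of 0.36, where 8.04% of all genes were called higher. Of the 24 G2/M genes 1 was called higher and 8 lower in number 3, with a median of -0.27, and of 23 G1/S genes, which act in DNA replication, 2 were higher and 11 lower, with a median of -0.31, where 4.75% of all genes were called lower. With fly totals these medians were -0.01 for G2/M and -0.05 for G1/S. Of the 34 ribosomal protein genes 0 were called between numbers 3 and 4, with a median of -0.34, which was -0.08 with fly totals. The 13 mitochondrially encoded genes did not recur: 8 were called higher and 0 lower in number 3 in the auxin libraries, while their untreated median was -0.62 (-0.36 with fly totals).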

How the data were processed

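Poly(A) RNA-seq libraries were compared. The authors deposited 1 table of raw read counts per gene for 12 libraries, with human and fly genes in the same table. The submitters' processing notes name featureCounts 2.0.0, STAR 2.7.5 and cutadapt 1.14, and the builds GRCh38 and BDGP6; the strand setting and the annotation release are not given in the sources used here. Without a known strand setting, overlapping and antisense genes are uncertain. Symbols and positions came from GENCODE 29, which matched 58420 of 60666 human rows.

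Human genes passing edgeR's filter on low counts (20791) were fitted with edgeR 4.0.16 in R 4.3.3: TMM scaling of human counts, 6 group means over 12 libraries (6 residual degrees of freedom) and its quasi-likelihood test, with p-values adjusted by Benjamini-Hochberg and called at 0.05. All 12 libraries were fitted so that the groups share an estimate of spread. Since differences between numbers recurred across times, the 6 residual degrees of freedom overstate how well that spread is known. CPM were computed with TMM-scaled library sizes, and TPM from the counts and transcript lengths. Differences between untreated libraries of a line are on the log2 CPM scale with a prior count of 2. limma 3.58.1 and DESeq2 1.42.0 gave alternatives, and the fits were tested on simulated data. In the simulation, the comparison at 0 h recovered 0% of 1.5-fold, 44% of 2-fold and 92% of 4-fold changes. It drew each library independently, with no difference between numbers shared across times, and changed only genes above 1 CPM. These shares therefore need not hold for the real libraries. Python 3.11.15 with pandas 2.3.3, numpy 2.4.6 and matplotlib 3.10.9 made the summaries and figures.

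Genes were named by this rule: SUPT6H and PAF1, the 12 largest called changes in each direction with no overlap and a mean of 1 or more in log2 CPM, members of gene lists with the smallest p or the highest level, and the 3 smallest p of a region described. KIAA1549L, the genes named for differences within a line or over 12 libraries, the NF-kB list and the genes given as examples of chromosome 4 were chosen after their values were seen, as were list members given for their role. Members, lists and tests were chosen with earlier results of these data known. The alternatives were other scalings, filters and tools, each time alone, and each library left out in turn. Depth bounds precision: intervals from counting do not cover the spread between libraries. Some genes of the lists are not reported here.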

Additional observations from a re-analysis of the deposited data

How the results depend on the processing

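Between untreated lines (7 genes called), the count was 0 with total counts, 0 with fly totals, 0 with the libraries of that time alone and 0 without number 3 at every time, and it was 317 with no filter on low counts and 87 with DESeq2's Wald test. It was 7 with DESeq2's size factors, 9 with a mean of at least 1 CPM and 7 with limma-voom. Leaving out 1 library gave 0 to 3. The 7 calls that kept their direction became 0 with total counts, 0 with fly totals, 287 with no filter, 74 with DESeq2, 21 with the replicate block and 0 without number 3, and 0 to 3 with 1 library left out. At 2 h (96) the count was 13 with fly totals, 586 with no filter, 415 with DESeq2, 8 with that time alone and 0 without number 3, and 3 to 99 with 1 library left out. At 6 h (2851) it was 1334 with that time alone and 747 without number 3, and 1020 to 2709 with 1 library left out. The median of chromosome 4 (0.226) reversed to -0.0375 without PAF1-AID 0h number 3, and its range with 1 library left out was -0.0375 to 0.437. Number 3 over 4 (2660) gave 4499 with all 12 libraries, and 754 to 5332 with 1 library left out. Number 1 over 2 (6069) gave 5188 to 7045. The cause of these changes was not tested. The count of coding genes at 1 TPM (11076) was 9453 with gene lengths and 11332 by CPM.

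No paired analysis was possible because the lines compared share no replicate number. The replicate block added as a random effect over the 12 libraries, chosen after seeing the data, gave 21 genes at 0 h, 238 at 2 h and 3014 at 6 h, with a correlation of 0.588 within a number.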
